A study of Homo sapiens with 10 samples.

Results

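Autophagy genes encode the machinery that wraps cytoplasm in a double membrane, the autophagosome, and hands it to the lysosome for breakdown. The 38 genes described here were listed by name and role, by a rule that uses no measured value, although earlier results of these data were known when they and the wider lists below were drawn up. They are 5 of the ULK initiation complex, 6 of the class III PI3-kinase complex and its regulators, 5 that read its lipid product or move lipid and membrane, 10 of the conjugation systems, 5 of the ATG8 family, 4 cargo receptors and 3 transcription factors of the TFEB family. All 38 were matched by symbol, among 58174 gene identifiers in all, and all 38 had enough reads to be tested, with 13743 genes tested in total.

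The RNA came from SNU-387, an established line from a pleomorphic hepatocellular carcinoma. Its cells stably expressed wild-type YES or YES carrying T348I, a substitution at the gatekeeper residue of the kinase pocket, and cells of both groups were under 100 nM dasatinib, an inhibitor of SRC-family and ABL kinases. There were 5 poly(A) libraries per genotype, and their titles come in 2 styles, long (3 per genotype) and short (2 per genotype), which entered the model as a possible batch. Each genotype is described as a stable cell line, no untreated library was analysed here, and the labels do not tell separate cultures apart, so the p-values cover the spread between these libraries alone, which may be technical.

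Autophagy starts when the ULK kinase complex, which the growth kinase mTORC1 holds back and the energy sensor AMPK promotes, activates the lipid kinase PIK3C3 (VPS34) at a forming membrane. The phosphoinositide it makes, PI3P, recruits the proteins that feed lipid to that membrane and the ATG12-ATG5-ATG16L1 complex, which couples ATG8 proteins to it. Cargo receptors tie their load to the ATG8 proteins, and TFEB, TFE3 and MITF are known to switch on genes of autophagy and of lysosomes when mTORC1 activity is low. In liver, autophagy is known for its part in nutrient supply during fasting and in the removal of protein aggregates.

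Gene counts ran from 10168307 to 16939029 per library. Wild-type long-title libraries 1 and 2 stood apart from the others, library 1 in its counts and library 2 in its reads, with 8.64% unmapped and 29.98% outside genes, the highest shares of the 10 libraries. The 3 T348I long-title libraries were close to each other, at 1.58 to 2.04 in chi-square over genes divided by its degrees of freedom, against 34.6 and 48.6 between wild-type long-title library 1 and the others of its set and 12.8 between libraries 2 and 3. Between the 2 short-title libraries this value was 26.12 in wild type, above that of wild-type long-title libraries 2 and 3, and 7.365 in T348I. YES1 was at 303 ± 102 CPM (read counts scaled by library size; mean ± SD, n = 5, as for every CPM value with ± below) in the wild-type and 453 ± 86.4 CPM in the T348I group. Those reads mix construct and endogenous gene and check expression, not the substitution. Hepatocyte markers, 2 of 10 with enough reads to be tested, summed to 10.4 to 23.6 CPM in wild-type and 10.4 to 24.0 CPM in T348I libraries. Among them ALB, APOC3 and TTR stayed under 0.1 CPM in every library. Mesenchymal markers, 6 of 6 tested, summed to 12224 to 37279 CPM in wild-type and 8820 to 13462 CPM in T348I libraries. Epithelial markers, 4 of 6 tested, went the other way, with sums of 732 to 966 CPM in wild type and 937 to 1061 CPM with T348I. Leukocyte markers, 1 of 6 tested, summed to 5.28 to 45.6 and 3.25 to 6.15 CPM, with CD3E at 0 throughout, and endothelial markers, 2 of 5 tested, to 6.30 to 16.9 and 4.51 to 6.48 CPM. The upper wild-type ends of the mesenchymal and leukocyte sums are wild-type long-title library 1, with FN1 at 26236 CPM and CD14 at 45.1 CPM, and the part of these markers in the differences below was not tested. In bulk RNA, fewer cells that express a gene and less RNA of it per cell cannot be told apart.

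Transcripts of 13 of the 38 autophagy genes were lower in T348I cells, 0 were higher, and 25 did not pass the test (edgeR quasi-likelihood test, Benjamini-Hochberg adjustment over all genes, adjusted p under 0.05). The 13 were ULK1, RB1CC1, PIK3C3, ATG14, WIPI1, WIPI2, ATG2B, MAP1LC3A, GABARAPL1, SQSTM1, NBR1, OPTN and TFEB. They lie in 6 of the 7 roles and came to 34.2% of the list, while 13.3% of all genes tested were lower, 13.7% higher and 27% called in either direction. At an unadjusted p under 0.05 there were 16 members lower and 3 higher, and the share over all genes was not computed there. DESeq2 called 13 lower and 0 higher, and limma-voom gave the same pair of counts. Over all 13743 genes DESeq2 called 1972 lower and 1943 higher, and limma-voom 1733 lower and 1968 higher. The median log2 fold change was -0.15 over the members and -0.03 over all genes tested, and 28 of the 38 members lay below 0. The differences were moderate: the 13 called members had a median absolute log2 fold change of 0.43, against 0.49 for all called genes, and 0 members passed a 2-fold change, which 352 called genes did.

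**Figure D1:**
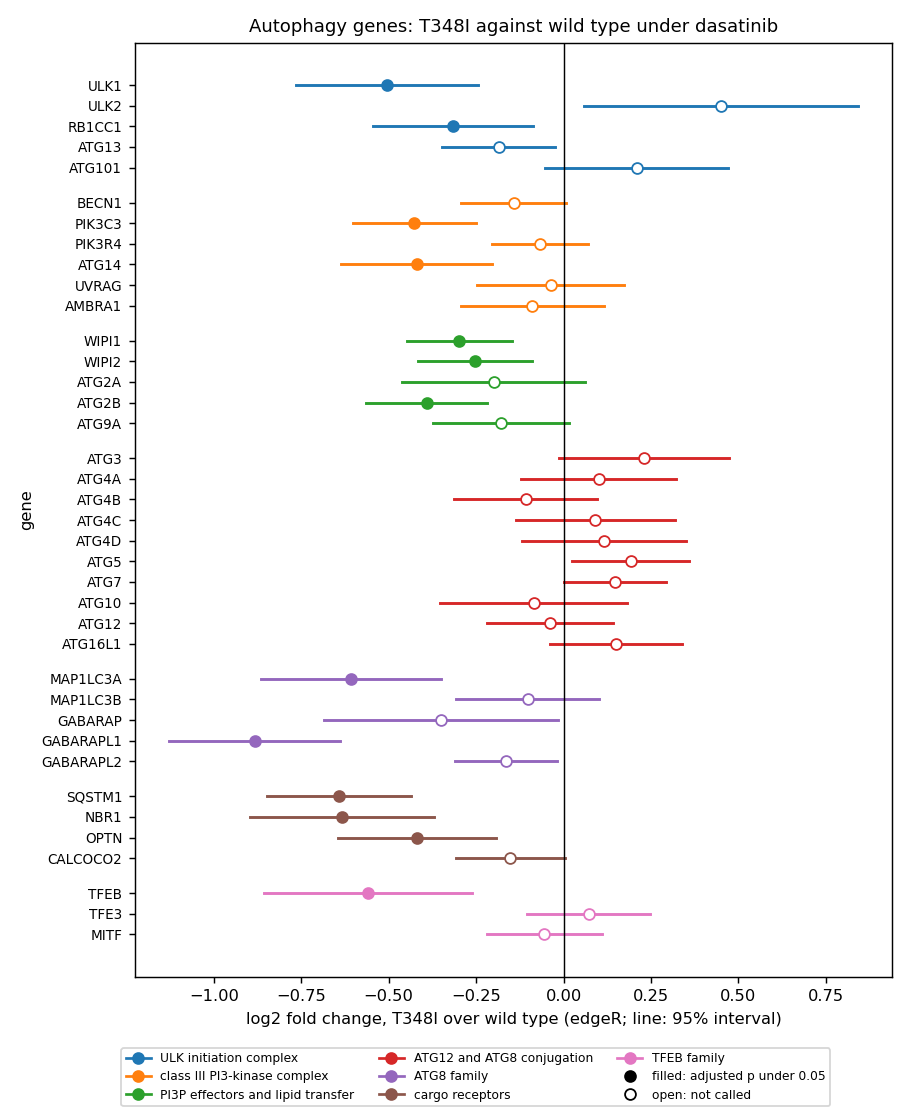
Log2 fold change of each of the 38 autophagy genes, T348I over wild type (horizontal axis), with its 95% interval as a line; colours give the role and filled points have an adjusted p under 0.05. The 13 filled points all lie left of 0, from GABARAPL1 at -0.88 to WIPI2 at -0.25, and the 10 conjugation genes hold no filled point.

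RefSeq promoter sequence (GRCh38.p14), the 250 bases before the annotated start, was at hand for 34 of the 38 members, all but RB1CC1, UVRAG, ATG4D and MAP1LC3A. Their median GC content was 62.6%, against 58% for all 27305 windows. The letters CACGTG, the core of the E-box that the TFEB family is known to bind and a palindrome on both strands, were found in 2 members, ATG14 and ATG3, and in 6.49% of all windows. The longer TCACGTG, which holds the shorter motif, was found in the same 2 members and in 3.38% of all windows. The CRE letters TGACGTCA, also a palindrome, were found in 1 member, GABARAPL1, and in 1.77% of all windows. On either strand, 12 members held CCAAT (33% of all windows), 6 held the ETS letters CCGGAAG (8.82%), 1 held the AP-1 letters TGANTCA (TFE3; 6.6%) and 1 held the FOXO letters GTAAACA (CALCOCO2; 2.98%). Some windows hold part of the member's own GENCODE 29 gene model. SQSTM1 and NBR1 are shown whole as the 2 called members of lowest p whose windows hold none of it. For each E-box or CRE match 30 bases are shown, with its letters in capitals. The SQSTM1 and NBR1 windows hold none of the motifs searched, so they have no capitals.
SQSTM1, chr5:179806143-179806392, plus strand: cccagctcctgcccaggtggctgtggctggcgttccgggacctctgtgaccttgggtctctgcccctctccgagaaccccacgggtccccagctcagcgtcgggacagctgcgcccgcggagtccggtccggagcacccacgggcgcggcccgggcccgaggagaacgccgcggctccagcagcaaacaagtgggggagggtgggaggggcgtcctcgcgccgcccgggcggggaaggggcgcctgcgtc
NBR1, chr17:43170159-43170408, plus strand: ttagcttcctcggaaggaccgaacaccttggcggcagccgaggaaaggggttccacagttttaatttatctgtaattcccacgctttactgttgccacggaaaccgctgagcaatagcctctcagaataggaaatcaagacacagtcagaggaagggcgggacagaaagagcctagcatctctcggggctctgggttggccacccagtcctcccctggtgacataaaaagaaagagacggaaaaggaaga
GABARAPL1, chr12:10212836-10212865, plus strand: ggctcgcggggTGACGTCAcagcccgacgc
ATG14, chr14:55411834-55411863, minus strand: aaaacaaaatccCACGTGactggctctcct
ATG3, chr3:112561963-112561992, minus strand: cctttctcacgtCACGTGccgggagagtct
The CRE match of GABARAPL1 begins 30 bases before the RefSeq start, and the E-box matches of ATG14 and ATG3 begin 21 and 18 bases before theirs. In the GENCODE 29 gene models, which begin further upstream, all 3 matches lie inside the gene. Of these 3 genes, GABARAPL1 and ATG14 were lower in T348I cells and ATG3 was not called. A match describes the letters of the window and not a bound site.

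In the ULK initiation complex, 2 of 5 members were lower (40%, against 13.3% lower and 27% called of all genes) and 0 higher. The median log2 fold change was -0.19. ULK1 is the kinase that starts the pathway (ENSG00000177169.9, GRCh38 chromosome 12 from 131894651 to 131923167, plus strand). Wild-type ULK1 was at 94.1, 56.9 and 83.8 CPM in long-title libraries 1 to 3 and 86.5 and 69.7 CPM in the short-title ones, and T348I at 57.2, 60.4, 59.5, 47.5 and 52.2 CPM in the same order. Wild-type long-title library 2 lay within the T348I range, and the other 4 wild-type libraries lay above every T348I library. ULK1 fell from 78.2 ± 14.8 to 55.3 ± 5.45 CPM, or -0.50 ± 0.12 as log2 fold change (± its standard error, as below; edgeR adjusted p = 0.0082).

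RB1CC1 (FIP200), the scaffold of the same complex (ENSG00000023287.12, chromosome 8 from 52622456 to 52745843, minus strand), stood at 136, 203, 145, 97.7 and 114 CPM in wild-type and 119, 123, 129, 86.4 and 97.2 CPM in T348I libraries. Within each title set every T348I library was below every wild-type one, while over both sets the groups overlapped. Its log2 fold change was -0.31 ± 0.11 (edgeR adjusted p = 0.0426). That call sat near the threshold and ended when 1 of 5 libraries was left out: short-title library 2 of the wild type (adjusted p = 0.0942), short-title library 1 of T348I (0.103), or any long-title library of T348I (0.111, 0.0994 and 0.0828 for 1 to 3). It also ended with library sizes alone in place of TMM scaling (0.0569). Leaving out wild-type long-title library 2, where RB1CC1 was highest, shrank the fold change to -0.19 (adjusted p = 0.0452). The adaptor ATG13 had -0.19 (adjusted p = 0.0822) and its partner ATG101 0.21 (0.222). ATG13 passed, at -0.22, when wild-type long-title library 2 (0.0246) or short-title library 1 (0.0449) was left out. The paralogous kinase ULK2 had the highest fold change of the 38 genes, 0.45 ± 0.18, which did not pass (adjusted p = 0.0824). ULK2 was scarce, at 2.14 ± 0.852 CPM in wild type against 2.88 ± 0.706 CPM with T348I, and its T348I values lay above the wild-type values within each title set.

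In the class III PI3-kinase complex, 2 of 6 members were lower (33.3%, against 13.3% of all genes). The share called in either direction was the same 33.3%, near the 27% of all genes. All 6 fold changes lay below 0, with a median of -0.12. PIK3C3, the catalytic subunit (ENSG00000078142.12, chromosome 18 from 41955206 to 42087830, plus strand), was at 37.9, 46.1, 39.6, 32.3 and 29.7 CPM in wild-type and 32.5, 28.7, 29.4, 22.9 and 24.1 CPM in T348I libraries. The T348I libraries were lower within each title set. Its log2 fold change was -0.43 ± 0.08 (edgeR adjusted p = 0.00229).

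ATG14 is the subunit that directs this complex to autophagosome formation (ENSG00000126775.8, chromosome 14 from 55366392 to 55411858, minus strand). Its wild-type libraries read 19.4, 27.2, 25.1, 29.4 and 27.0 CPM and its T348I libraries 17.1, 18.6, 18.8, 19.6 and 21.3 CPM. Wild-type long-title library 1 alone reached into the T348I range. ATG14 fell by 0.42 ± 0.10 on the log2 scale (edgeR adjusted p = 0.00817). The other 4 members did not pass: the scaffold BECN1 had -0.14, the regulatory subunit PIK3R4 -0.07, UVRAG, which takes ATG14's place in an endosomal form of the complex, -0.04, and the BECN1 regulator AMBRA1 -0.09 (adjusted p from 0.146 to 0.811).

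Among the PI3P effectors and lipid-transfer genes, 3 of 5 members were lower (60%, against 13.3% lower and 27% called of all genes). All 5 fold changes were below 0, with a median of -0.25. ATG2B, a bridge that channels lipid into the growing membrane (ENSG00000066739.11, chromosome 14 from 96279202 to 96363870, minus strand), was at 66.0, 57.1, 52.2, 63.2 and 69.3 CPM in wild-type and 43.4, 42.1, 46.3, 48.5 and 54.9 CPM in T348I libraries. Only wild-type long-title library 3 and T348I short-title library 2 crossed. ATG2B fell by 0.39 ± 0.08 on the log2 scale (edgeR adjusted p = 0.00335).

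WIPI1, which binds PI3P (ENSG00000070540.12, chromosome 17 from 68420948 to 68457513, minus strand), was at 95.9, 78.7, 83.3, 62.8 and 67.3 CPM in wild-type and 70.2, 68.1, 68.9, 53.5 and 54.6 CPM in T348I libraries. Both groups were higher in the long-title set, and within each set the T348I libraries lay below the wild-type ones (-0.30 ± 0.07, edgeR adjusted p = 0.00731). WIPI2, which also binds PI3P and recruits ATG16L1 (ENSG00000157954.14, chromosome 7 from 5190188 to 5233826, plus strand), was at 87.7, 85.2, 99.7, 83.6 and 97.1 CPM against 72.8, 72.9, 74.2, 75.1 and 86.0 CPM. T348I short-title library 2 stood above the other T348I libraries and within the wild-type range. The WIPI2 difference was the smallest of the 13 calls, -0.25 ± 0.08 (edgeR adjusted p = 0.0256). It ended when 1 of 6 libraries was left out: long-title library 3 (adjusted p = 0.0636) or short-title library 2 (0.0695) of the wild type, short-title library 1 of T348I (0.0779), or any long-title library of T348I (0.0756, 0.0746 and 0.0674 for 1 to 3). It also ended without the filter on low counts (0.108), and in the short-title libraries the WIPI2 fold change was -0.15 (0.488).

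The paralogue ATG2A had -0.20 (adjusted p = 0.243) and ATG9A, a lipid scramblase on vesicles that seed the membrane, -0.18 (adjusted p = 0.161). Without wild-type long-title library 2, where it was lowest, ATG2A passed at -0.30 (adjusted p = 0.00747). ATG9A passed at -0.33 (adjusted p = 0.000792) when wild-type long-title libraries 1 and 2 were both left out. In the gene models 38.8% of the exon length of ATG9A is shared on the same strand with another gene, AC068946.2, and reads there are left out of its counts as ambiguous.

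Against 27% of all genes tested, none of the 10 conjugation genes was called. These encode the cysteine proteases that trim ATG8 proteins (ATG4A to ATG4D), the activating enzyme ATG7, the conjugating enzymes ATG3 and ATG10, and ATG12, ATG5 and ATG16L1. Their fold changes ran from -0.11 for ATG4B to 0.23 for ATG3 with a median of 0.11, and 7 of the 10 were above 0. Adjusted p ran from 0.082 for ATG5 to 0.762 for ATG12, in edgeR. At an unadjusted p under 0.05 there were 2 members higher, ATG5 and ATG7, and 0 lower, and neither DESeq2 nor limma-voom called any of the 10.

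ATG5 was at 79.0, 101, 79.9, 81.4 and 74.3 CPM in wild-type and 101, 99.7, 97.1, 90.4 and 87.1 CPM in T348I libraries. Wild-type long-title library 2 alone reached the T348I values, and the log2 fold change was 0.19 ± 0.08. Without that library ATG5 passed at 0.26 (adjusted p = 0.0051), and so did ATG3 at 0.35 (adjusted p = 0.0106). Leaving out wild-type long-title library 1, ATG7 passed at 0.19 (adjusted p = 0.039). The 95% intervals of the 10 fold changes as fitted reach from -0.35 (ATG10) at the lowest to 0.47 (ATG3) at the highest.

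The ATG8 family, whose lipid-bound members mark the autophagosome, had 2 of 5 members lower (40%, against 13.3% lower and 27% called of all genes). All 5 fold changes were below 0, with a median of -0.35. GABARAPL1 (ENSG00000139112.10, chromosome 12 from 10212458 to 10223130, plus strand) had the largest difference of the 38 genes. Its wild-type libraries were at 119.8, 80.8, 87.6, 61.4 and 65.0 CPM and its T348I libraries at 53.5, 55.6, 56.4, 26.7 and 36.1 CPM. Every T348I library lay below every wild-type library. GABARAPL1 fell from 82.9 ± 23.3 to 45.6 ± 13.5 CPM, or -0.88 ± 0.11 as log2 fold change (edgeR adjusted p = 0.000179). It was the only called member that passed under all 23 alternative settings tried.

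MAP1LC3A (ENSG00000101460.12, chromosome 20 from 34546854 to 34560345, plus strand) was at 29.9, 22.1, 32.9, 21.9 and 18.9 CPM in wild-type and 20.3, 21.7, 18.9, 11.8 and 11.4 CPM in T348I libraries. The groups overlapped over all libraries and were apart within each title set (-0.61 ± 0.12, edgeR adjusted p = 0.00256). Its paralogue MAP1LC3B, the form most often used as an autophagosome marker, was not called. MAP1LC3B was more abundant, at 144 ± 44.0 CPM in wild type against 134 ± 34.2 CPM with T348I, with a fold change of -0.10 ± 0.09 (adjusted p = 0.447) and a 95% interval from -0.31 to 0.10.

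GABARAPL2 had -0.16 ± 0.07 (adjusted p = 0.0883), from 62.4 ± 12.3 to 55.8 ± 11.98 CPM, and its T348I libraries were below the wild-type ones within each title set. GABARAP was counted at only 8.38 ± 2.05 and 6.57 ± 0.876 CPM, with a fold change of -0.35 ± 0.16 (adjusted p = 0.11). It shares 30.5% of its exon length on the same strand with AC120057.2, so part of its reads cannot be counted. Without wild-type long-title library 2 GABARAP passed at -0.46 (adjusted p = 0.0127).

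Of the 4 cargo receptors 3 were lower (75%, against 13.3% lower and 27% called of all genes). All 4 fold changes were below 0, and the median of -0.53 was the lowest of the 7 roles. SQSTM1 (p62), which carries ubiquitinated proteins and is itself degraded by autophagy (ENSG00000161011.19, chromosome 5 from 179806398 to 179838078, plus strand), was at 1672, 1848, 2102, 744 and 973 CPM in wild-type and 1184, 1159, 1206, 536 and 592 CPM in T348I libraries. The title sets differed more than the genotypes: in wild type SQSTM1 was higher in the long-title set by 1.13 on the log2 scale. Within each set every T348I library was below every wild-type library. The log2 fold change was -0.64 ± 0.10 (edgeR adjusted p = 0.000435).

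NBR1, a related ubiquitin receptor (ENSG00000188554.13, chromosome 17 from 43170481 to 43211689, plus strand), was at 235, 184, 161, 157 and 211 CPM in wild-type and 114, 115, 117, 115 and 152 CPM in T348I libraries. As with GABARAPL1, the groups did not overlap, although T348I short-title library 2 came close to the lowest wild-type value. NBR1 fell by 0.63 ± 0.12 on the log2 scale (edgeR adjusted p = 0.00233). Non-overlap of all 10 libraries with T348I below was thus seen in 2 members and in 4.15% of genes tested, and with T348I above in 0 members and in 6.94% of genes.

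OPTN, a receptor for damaged mitochondria and bacteria (ENSG00000123240.16, chromosome 10 from 13099449 to 13138308, plus strand), was at 295, 279, 238, 173 and 230.4 CPM in wild-type and 181, 188, 183, 159 and 189.6 CPM in T348I libraries. The groups were apart in the long-title set and overlapped in the short-title set. OPTN fell by 0.42 ± 0.10 on the log2 scale (edgeR adjusted p = 0.0103). Fitted by title set, its fold change was -0.56 for the long titles (adjusted p = 0.0163) and -0.20 for the short ones (adjusted p = 0.448), and it was -0.27 (adjusted p = 0.0384) when wild-type long-title libraries 1 and 2 were both left out. CALCOCO2 (NDP52), a receptor for bacteria and mitochondria, had -0.15 ± 0.07 (adjusted p = 0.138), from 127 ± 10.8 to 114 ± 4.33 CPM.

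**Figure D2:**
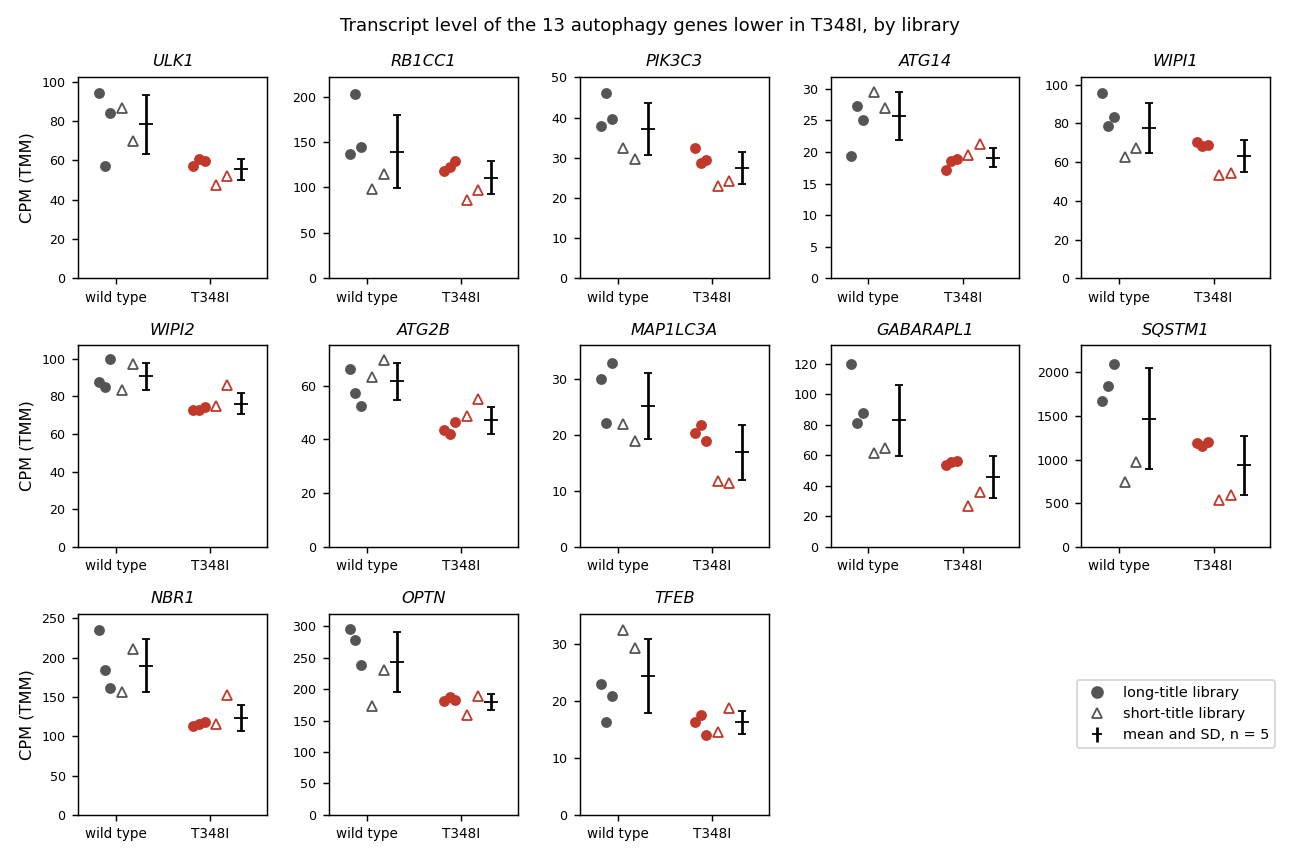
CPM (vertical axis, from 0) of the 13 lower autophagy genes in each wild-type (grey) and T348I (red) library; circles are long-title and triangles short-title libraries, and black bars give mean and SD of 5. GABARAPL1 and NBR1 show no overlap, and SQSTM1 separates by title set, from 744 to 2102 CPM in wild type.

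Of the TFEB family, TFEB was lower and TFE3 and MITF were not called. That is 33.3% of the 3 genes, near the 27% called of all genes. TFEB (ENSG00000112561.17, chromosome 6 from 41683978 to 41736259, minus strand) was at 22.9, 16.2, 20.8, 32.3 and 29.2 CPM in wild-type and 16.3, 17.5, 14.0, 14.5 and 18.7 CPM in T348I libraries. The short-title wild-type libraries were the highest, and wild-type long-title library 2 lay within the T348I range. The log2 fold change was -0.56 ± 0.14 (edgeR adjusted p = 0.00981). Fitted by title set, it was -0.33 for the long titles (adjusted p = 0.214) and -0.87 for the short ones (adjusted p = 0.00675).

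TFE3 was the most abundant of the 3 genes, at 161 ± 19.7 CPM in wild type against 169 ± 12.7 CPM with T348I, with a fold change of 0.07 ± 0.08 (adjusted p = 0.545; 95% interval -0.10 to 0.25). MITF was at 34.0 ± 3.61 and 32.7 ± 2.25 CPM (-0.06 ± 0.08, adjusted p = 0.625; 95% interval -0.22 to 0.11). These are transcript levels: TFEB, TFE3 and MITF are known to be controlled largely by phosphorylation and location in the cell, which RNA counts do not measure.

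**Figure D3:**
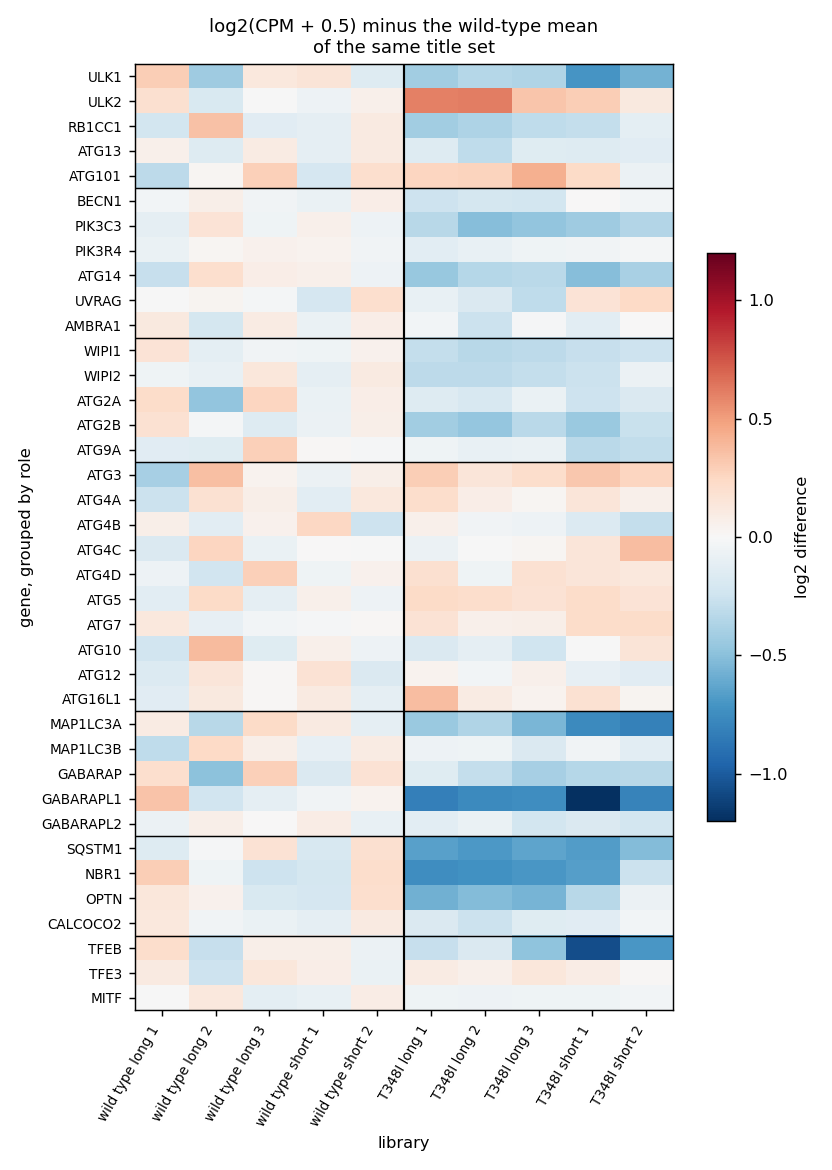
Difference of log2(CPM + 0.5) from the wild-type mean of the same title set (colour scale in log2 units), for the 38 autophagy genes grouped by role (rows) in the 10 libraries (columns, T348I right of the line). The median over the members was below 0 in each T348I library, from -0.18 to -0.10.

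The title sets bear on most of these values. Within both sets at once, all T348I libraries were below all wild-type libraries of the set for 10 members, against 11.4% of all genes, and above them for 1 member, ULK2, against 13.8%. The 10 were RB1CC1, PIK3C3, ATG14, WIPI1, ATG2B, MAP1LC3A, GABARAPL1, GABARAPL2, SQSTM1 and NBR1. The fold change had the same sign in both sets for 34 of the 38 members, a share not computed over all genes. It did so for 13 of the 13 called, which a fit pooling both sets favours in advance. Fitted on each set alone, with fewer libraries, 5 members were lower in each. Lower calls over all genes fell from 1825 to 499 and 599 there. Only GABARAPL1 and SQSTM1 passed in both sets. PIK3C3, NBR1 and OPTN passed in the long-title set only, and ULK1, MAP1LC3A and TFEB in the short-title set only. RB1CC1, ATG14, WIPI1, WIPI2 and ATG2B passed in neither. The genotype by title set interaction was called for 0 members by edgeR (lowest adjusted p = 0.997), by DESeq2 and by limma-voom, and at an unadjusted p under 0.05 for 1, TFEB. Over all 13743 genes it was called for 0 by edgeR and limma-voom and for 1 higher and 1 lower by DESeq2. The 0 is thus no result about the members.

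Fitted without the title set, the calls of 8 members ended: RB1CC1 (edgeR adjusted p = 0.302), PIK3C3 (0.0758), WIPI1 (0.178), WIPI2 (0.0835), MAP1LC3A (0.126), SQSTM1 (0.237), OPTN (0.0654) and TFEB (0.0616). With the 3 similar T348I long-title libraries summed into 1, the calls of 7 ended: ULK1 (0.0529), RB1CC1 (0.234), ATG14 (0.0654), WIPI1 (0.0953), WIPI2 (0.209), ATG2B (0.0501) and OPTN (0.14). GABARAPL1 and NBR1 passed in both. With 1 library left out at a time, 11 of the 13 kept their calls in every case, RB1CC1 and WIPI2 being the exceptions. Leaving out wild-type long-title libraries 1 and 2 together, 17 members were lower and 3 higher, the 3 being ATG3, ATG5 and ATG7. Over all 14430 genes tested in that fit, 2055 were lower and 2304 higher. Without wild-type long-title library 2 alone, 16 members were lower and 2 higher. Calls over all genes rose in that fit as well, from 1825 to 2297 lower and from 1884 to 2379 higher.

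Per length, on the scale of CPM per kb of exon, the levels of the 38 genes spanned a wide range. SQSTM1 was the highest, at 192 ± 76.1 CPM per kb in wild-type and 122 ± 44.4 in T348I libraries, and its mean over all 10 libraries was at the 98.8th percentile of genes tested. OPTN followed at 47.3 ± 9.28 and 35.0 ± 2.42 CPM per kb, then TFE3 at 37.5 ± 4.60 and 39.5 ± 2.97, ATG9A at 37.0 ± 4.74 and 32.8 ± 3.18, and MAP1LC3B at 27.0 ± 8.29 and 25.1 ± 6.44. Of the 37 pairs of neighbours in this order, 28 lay within 1 SD (the larger of the pair) of each other in at least 1 genotype, so their order is not firm. The 9 pairs apart by more than that in both genotypes included SQSTM1 and OPTN, OPTN and TFE3, ATG9A and MAP1LC3B, and, at the lower end, ATG10 and PIK3C3 and PIK3C3 and ULK2. At the other end stood TFEB at 4.30 ± 1.15 and 2.87 ± 0.354 CPM per kb, GABARAP at 3.70 ± 0.905 and 2.90 ± 0.386, PIK3C3 at 2.44 ± 0.422 and 1.81 ± 0.261, and ULK2 at 0.217 ± 0.0865 and 0.292 ± 0.0717. Called members were found at both ends of the range. The levels of ATG9A and GABARAP may be understated, since their exon length includes the part shared with another gene.

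**Figure D4:**
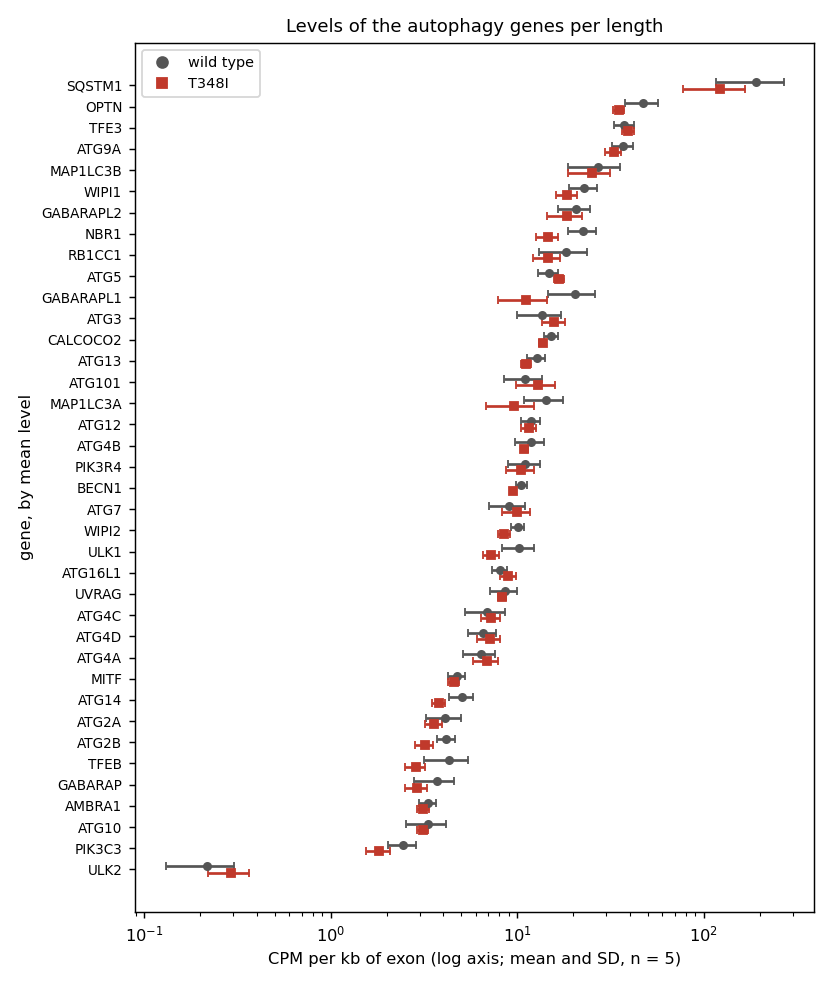
Level of each autophagy gene in CPM per kb of exon (log axis), mean and SD of 5 wild-type (grey circles) and 5 T348I (red squares) libraries, ordered by mean level. SQSTM1 stands above the rest, ULK2 below, and the SDs of most neighbours overlap.

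Genes beyond the 38 were taken from 5 lists of the wider pathway, and 101 of them were tested. Of these, 34 were lower (33.7%, against 13.3% of all genes) and 5 higher (4.95%, against 13.7%), with a median log2 fold change of -0.18. Most uniform in direction were 23 known TFEB family target genes outside the members, chiefly lysosomal hydrolases and membrane proteins: 13 were lower (56.5%, against 13.3% of all genes), 0 higher, and all 23 fold changes were below 0, with a median of -0.36. The share called in either direction was likewise 56.5%, against 27% of all genes. At an unadjusted p under 0.05 there were 15 lower and 0 higher, and DESeq2 and limma-voom called 14 and 13 lower and 0 higher. CTSF, a lysosomal cysteine protease, went from 64.6 ± 12.9 to 32.7 ± 6.31 CPM (-0.98 ± 0.11, edgeR adjusted p = 7.69e-05). GPNMB, a membrane glycoprotein of lysosomes and melanosomes, went from 11.7 ± 3.54 to 5.10 ± 0.382 CPM (-1.16 ± 0.14, adjusted p = 0.000157), and the sialidase NEU1 had -0.47 ± 0.08 (adjusted p = 0.000685), a call that ended without the title set term (0.156). Fitted on the short titles alone, GPNMB had -0.75 (adjusted p = 0.0657) and NEU1 -0.31 (0.131). The count of lower genes in this list was 6 without the title set term, 8 with the T348I long-title libraries summed, and 12 to 14 with each library left out. Over all genes, 1825 lower as fitted became 497, 563, and 1108 to 2297 in those fits.

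Of 14 further core autophagy factors 5 were lower (35.7%, against 13.3% of all genes) and 0 higher (1 at an unadjusted p under 0.05, and 0 by DESeq2 and limma-voom), with a median of -0.17. The share called in either direction was the same 35.7%, against 27% of all genes. TP53INP1, a stress protein that binds ATG8 proteins, was at 24.1, 32.7, 31.9, 33.7 and 31.5 CPM in wild-type and 12.5, 13.5, 15.4, 8.57 and 15.8 CPM in T348I libraries, without overlap. Its log2 fold change was -1.23 ± 0.15 (edgeR adjusted p = 0.000154), larger than that of any of the 38 members. Its relative TP53INP2 had -0.73 ± 0.10 (adjusted p = 0.000208; 0.0504 without the title set term), and ZFYVE1, a PI3P-binding protein of the endoplasmic reticulum sites where autophagosomes form, -0.58 ± 0.11 (adjusted p = 0.0023).

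Of 15 genes for the fusion of autophagosomes with lysosomes, 4 were lower and 1 higher, with a median of -0.18. That is 33.3% called, near the 27% of all genes. By direction, 26.7% were lower (13.3% of all genes) and 6.67% higher (13.7%). The HOPS tethering subunits VPS41 (-0.55 ± 0.10, edgeR adjusted p = 0.00137) and VPS39 (-0.32 ± 0.07, adjusted p = 0.00489) were lower, as was RILP, a partner of the lysosomal GTPase RAB7 (-1.16 ± 0.24, adjusted p = 0.00321), which was scarce at 5.04 ± 2.20 and 2.21 ± 0.439 CPM. The SNARE gene YKT6 was higher at 0.22 ± 0.07 (adjusted p = 0.0389), a call that ended in 7 of the 10 fits with 1 library left out: short-title library 1 (adjusted p = 0.0705) or 2 (0.053) of the wild type, any long-title library of T348I (0.089, 0.0879 and 0.0734 for 1 to 3), and its short-title library 1 (0.107) or 2 (0.0631). Without wild-type long-title library 2, 7 genes of this list were lower. Over all 14078 genes tested in that fit, 2297 were lower and 2379 higher, against 1825 and 1884 as fitted. The VPS39 call ended with the T348I long-title libraries summed (0.0632), and the YKT6 call ended there (0.176), without the title set term (0.172) and with the replicate number as a block (0.057).

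Of 18 tested receptors of selective autophagy other than the 4 above, 5 were lower and 1 higher, with a median of -0.12. That share, 33.3%, was likewise near the 27% of all genes. Split by direction, it was 27.8% lower (13.3% of all genes) and 5.56% higher (13.7%). The endoplasmic reticulum receptor CCPG1 (-0.65 ± 0.10, edgeR adjusted p = 0.00077), the mitophagy kinase PINK1 (-0.44 ± 0.07, adjusted p = 0.00083) and the mitophagy receptor BNIP3L (-0.37 ± 0.09, adjusted p = 0.00775) were lower. The prohibitin PHB2 of the inner mitochondrial membrane was higher (0.29 ± 0.08, adjusted p = 0.013). Without the title set term the calls of CCPG1 (0.143), BNIP3L (0.209) and PHB2 (0.0531) ended, and with the summed libraries those of BNIP3L (0.0919) and PHB2 (0.0849). The count of lower genes in this list went from 5 to 3 without T348I long-title library 1 or T348I short-title library 1. Over all genes it went from 1825 to 1204 and 1108 in those fits.

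Of 31 genes for the control of autophagy by mTORC1 and AMPK, 7 were lower and 3 higher, with a median of -0.06. The share called, 32.3%, was near the 27% of all genes. Lower genes made up 22.6% (13.3% of all genes) and higher genes 9.68% (13.7%). FLCN, which acts on the Rag GTPases that hold mTORC1 and TFEB at the lysosome, had -0.67 ± 0.12 (edgeR adjusted p = 0.00121), TSC1, which restrains mTORC1, -0.37 ± 0.08 (adjusted p = 0.00577), and SESN1, a stress-induced mTORC1 inhibitor, -0.34 ± 0.09 (adjusted p = 0.0165). The AMPK subunit PRKAG2 was higher by 0.63 ± 0.11 (adjusted p = 0.00148), SESN2, a relative of SESN1, by 0.64 ± 0.15 (adjusted p = 0.00695), and RHEB, the GTPase that activates mTORC1, by 0.29 ± 0.08 (adjusted p = 0.0149). Without the title set term the calls of TSC1 (0.1), SESN1 (0.235), PRKAG2 (0.0656), SESN2 (0.138) and RHEB (0.143) ended. Fitted by title set, PRKAG2 had 0.41 for the long titles (adjusted p = 0.0813) and 0.94 for the short ones (0.00233). With the summed libraries those of TSC1 (0.0586), SESN1 (0.0776), SESN2 (0.0672) and RHEB (0.0835) ended, and leaving out T348I short-title library 1 ended those of RHEB (0.0504) and SESN1 (0.0563), the latter also without T348I long-title library 2 (0.0584). The count of lower genes in this list, 7 as fitted, was 3, 2 and 4 without T348I long-title libraries 1, 2 and 3, and 3 without T348I short-title library 1. Over all genes, 1825 lower as fitted became 1204, 1228 and 1278 without those long-title libraries, and 1108 without that short-title library.

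**Figure D5:**
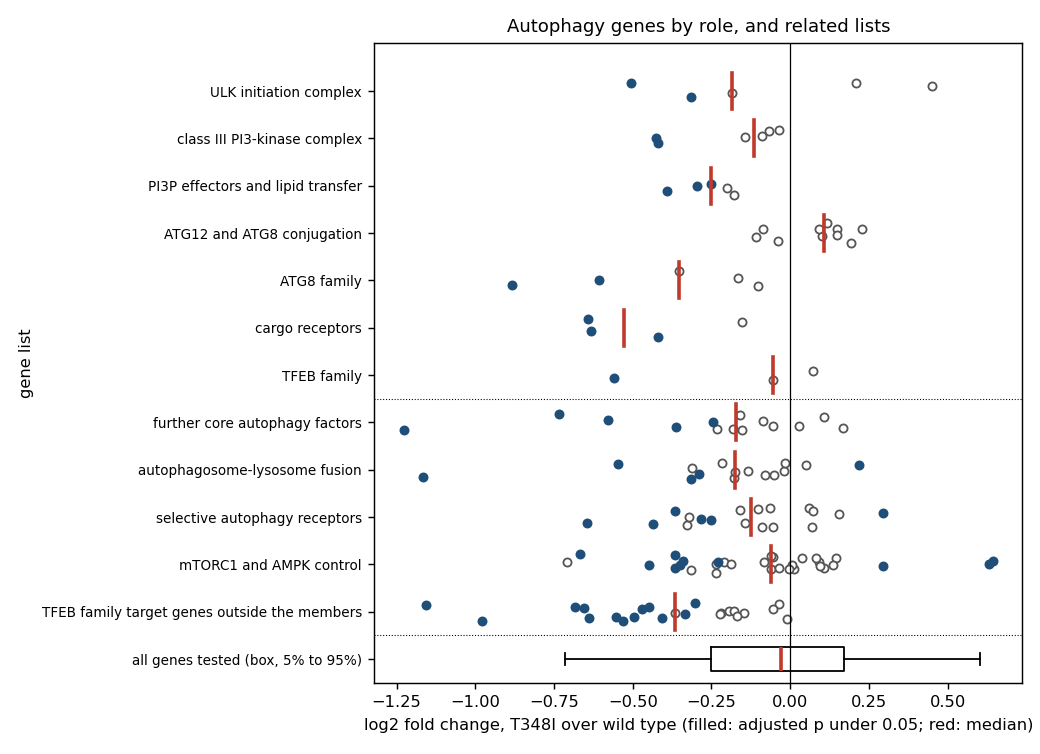
Log2 fold change (horizontal axis) of every tested gene in the 7 roles of the autophagy genes and the 5 wider lists; filled points have an adjusted p under 0.05, red bars are medians, and the box and whiskers give quartiles and the 5th to 95th percentile of all 13743 genes. The cargo receptors have the lowest median, -0.53, the TFEB family target genes lie below 0 throughout, and the conjugation genes have the only median above 0, at 0.11.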

How the data were processed

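Per the labels' protocols, RNA was extracted with Trizol and columns and made into KAPA stranded poly(A) libraries. Per the submitters' processing notes, CASAVA 1.8.2, Trimmomatic 0.35, STAR 2.5.1b and the build GRCh38 were used, and the annotation used for counting is not given in the sources used here. The deposited tables hold raw read counts per gene. The counts on the strand opposite to the read were used, since 92.2% to 94.5% of strand-assigned reads lay there. Identifiers were named by GENCODE 29 (57836 of 58174), and rows that name no gene (20.7% to 30% of reads) stayed out of all library sizes and tests. Reads with several placements are not counted, so BECN1, ATG3, ATG4A, ATG12, MAP1LC3B and SQSTM1, which have pseudogenes, are less certain. Only pseudogenes named after a member were looked for, so near copies of any member under other names are not covered.

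Genes were kept by filterByExpr (minimum count 10, total 15), scaled by TMM and fitted in edgeR 4.0.16 (R 4.3.3; quasi-likelihood, title set plus genotype), with Benjamini-Hochberg adjustment over 13743 genes. CPM use TMM-scaled library sizes, and SE is the fold change divided by the root of F. Alternatives were RLE, library sizes alone, DESeq2 1.42.0, voom in limma 3.58.1, no filter or 1 CPM in 5 libraries, a fit without the title set, fits of each set, a replicate block, summed or left-out libraries, and unstranded counts. The same script was tested on simulated counts. Members and lists were chosen with earlier results of these data known. The naming rule took all members, and from each wider list up to 3 called genes per direction with the lowest p. The name TMEM55B was not matched, and ATG9B, MAP1LC3C, RETREG1 and DEPTOR were among the genes too scarce to test.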

Additional observations from a re-analysis of the deposited data

Results flagged for a closer look

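In 6 of the 76 sets of 5 libraries (38 genes in each genotype), the highest or lowest library lay far from the other 4 by Dixon's criterion. Chance alone gives about 1 in 20, or 3.8, where the 5 values come from 1 normal population. Each set here pools both title sets, and all genes share the same libraries, so the 6 cannot be judged against the 3.8. Among the T348I libraries, short-title library 2 was high for WIPI2, at 86.0 CPM against 72.8 to 75.1 in the others, and for NBR1, at 152 CPM against 114 to 117, while short-title library 1 was low for OPTN, at 159 CPM (158.6) against 181 to 189.6. In wild type, long-title library 2 was low for ATG2A, at 20.5 CPM against 33.5 to 38.5, and high for ATG5, at 101 CPM (101.3) against 74.3 to 81.4. Wild-type short-title library 1 was high for ATG4B, at 102 CPM against 66.3 to 76.2.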

How the results depend on the processing

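Of 873 values of single members under the alternatives, 803 kept direction and call, 44 lost and 14 gained the call, and 12 changed sign, of which 0 belonged to called members. The sign changes were in UVRAG (0.20 in short-title libraries alone, 0.039 with T348I long-title libraries summed, 0.046 without wild-type long-title libraries 1 and 2, -0.13 to 0.016 with each library left out), ATG10 (0.10 in short-title libraries alone, 0.046 without both, 0.072 with unstranded counts, -0.14 to 0.052 with each left out), ATG12 (0.016 in long-title libraries alone, -0.091 to 0.030 with each left out), ATG4C (-0.030 in long-title libraries alone) and MITF (0.0045 without both). Members lower, 13 as reported, numbered 5 without the title set term, 5 in long-title and 5 in short-title libraries alone, 6 with libraries summed, and 11 to 16 with each left out; members higher numbered 3 without both libraries and 0 to 2 with each left out. The members' median was -0.19 in long-title libraries alone and -0.10 with unstranded counts. Called genes of the wider lists, 39 as reported, numbered 13 without the title set term, 21 and 10 in long-title and short-title libraries alone, 18 with libraries summed and 29 to 45 with each left out. Over all genes, 1884 higher and 1825 lower became 818 and 497 without the title set term, 698 and 499 in long-title and 935 and 599 in short-title libraries alone, and 899 and 563 with libraries summed. With each library left out, 1342 to 2379 genes were higher and 1108 to 2297 lower. The cause of the lost calls was not tested.

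The replicate numbers were not taken to pair libraries: same-numbered deviations correlated at -0.025, 0.159 and 0.075 in the long-title set and at 0.217 in the short-title set. With the number as a replicate block, 13 members were lower and 0 higher, and 38 genes of the wider lists and 1905 higher and 1836 lower genes overall were called. Depth limits scarce genes such as ULK2 (13 to 58 counts per library) most.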
